A study of Mus musculus with 12 samples.

Results

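The 10 genes described here encode the superoxide dismutases (Sod1, Sod2, Sod3), catalase (Cat) and the peroxiredoxins (Prdx1 to Prdx6). They were taken by name, as a list of known peroxide- and superoxide-removing enzymes and the list was drawn up with earlier results of these data known. All 10 were among the 54008 genes measured in the series, and all 10 passed the filter on low counts with which 18529 genes were tested. RNA had been taken by laser microdissection from the substantia nigra pars compacta (SNpc), the midbrain region whose dopaminergic neurons are lost in Parkinson's disease, of 12 mice labelled male and 1 week old. The 4 groups of 3 mice were OF1-En1+/- mice (SwissOF1 strain, Engrailed-1 hemizygous), OF1 wild-type (WT) mice, C57-En1+/- mice (C57Bl/6j strain, Engrailed-1 hemizygous) and C57 WT mice. Values of the 3 libraries of a group are given in 1 order throughout: SW21, SW22 and SWB for OF1-En1+/-, SW31, SW7 and SWG for OF1 WT, C5713, C572 and C575 for C57-En1+/-, and C5710, C572S and C5743 for C57 WT mice. In hemizygous animals 1 copy of En1, a homeodomain transcription factor gene of midbrain dopaminergic neurons, is interrupted by a LacZ insertion in every cell. The C57-En1+/- line descends from the OF1 one and was bred onto C57Bl/6j over many generations, so that stretches of OF1 genome around En1 may remain in it. The question put to these genes was whether the cytosolic and the mitochondrial enzymes differed between the genotypes and between the strains.

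Superoxide dismutases turn superoxide, a by-product of respiration, into hydrogen peroxide. Catalase breaks hydrogen peroxide down in peroxisomes, and peroxiredoxins reduce it, and organic peroxides, with a reactive cysteine that most of them have recharged by thioredoxin. Dopaminergic neurons of the SNpc carry an added peroxide load, because breakdown of dopamine by monoamine oxidase releases hydrogen peroxide, and the enzymes are divided among compartments: Sod1, Prdx1, Prdx2 and Prdx6 act mainly in the cytosol, Sod2, Prdx3 and Prdx5 in mitochondria (Prdx5 also in cytosol and peroxisomes), Cat in peroxisomes, Prdx4 in the endoplasmic reticulum and Sod3 outside cells.

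The libraries held 13538864 to 168741283 estimated reads. The C57 WT libraries were the deepest, with 66354437, 61433970 and 168741283 reads, against at most 37754338 in any other library. Depth thus separated C57 WT libraries from every other group, and its part in the comparisons with them was not tested. En1 itself did not follow the genotype labels: its normalized count was 912.7 in SW22, labelled OF1-En1+/-, and 1391 in C572S, labelled C57 WT, and at most 20.6 in the other 10 libraries. SW22 and C572S were also the libraries rich in dopaminergic markers, with 113540.4 and 157352 normalized counts of Th (tyrosine hydroxylase), against 11.6 to 1869 in the others, so most libraries held little RNA of the labelled neurons. C572, labelled C57-En1+/- and male, had 1802 normalized counts of Xist and 0 of the Y-linked genes Ddx3y and Eif2s3y, and its oligodendrocyte markers (6 of 6 detected) summed to 237069 normalized counts, against 13299 to 134526 in the other libraries. Comparisons of the C57 genotypes, which C572 enters, and the calls of single transcripts are therefore also given without such libraries. In bulk tissue, fewer cells of a type and less RNA per cell cannot be told apart.

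Prdx5, Prdx2 and Prdx1 were the most abundant of these transcripts. In TPM (a level corrected for transcript length and library depth, here summed over the protein-coding transcripts of a gene), Prdx5 averaged 869.6 ± 151.6, Prdx2 782.8 ± 88.4 and Prdx1 521.9 ± 82.8 (SD, n = 12 libraries). Sod1 followed with 326.4 ± 57.3 TPM and Prdx3 with 201.8 ± 49.1 TPM. By mean TPM these 5 genes were among the upper 0.632% (Prdx5) to 3.55% (Prdx3) of 21357 protein-coding genes. Cat (80.2 ± 15.5 TPM) and Prdx4 (78.3 ± 33.4 TPM) came next, then Sod2 (31.0 ± 12.8 TPM) and Prdx6 (21.3 ± 7.45 TPM), and Sod3, which is secreted, was lowest with 2.01 ± 0.840 TPM. Neighbours in this order whose difference was smaller than its own SD over the libraries were Prdx5 and Prdx2 (86.8 ± 175.5 TPM, Prdx5 higher in 9 of 12 libraries), Cat and Prdx4 (1.89 ± 38.9 TPM, Cat higher in 10 of 12) and Sod2 and Prdx6 (9.69 ± 16.2 TPM, Sod2 higher in 9 of 12). The order depends on which transcripts are summed: over all annotated transcripts, coding or not, Prdx2 came first with 1218 TPM, Prdx6 had 274.4 TPM and Sod2 178.1 TPM, while the other genes moved by less than 1 SD.

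**Figure D1:**
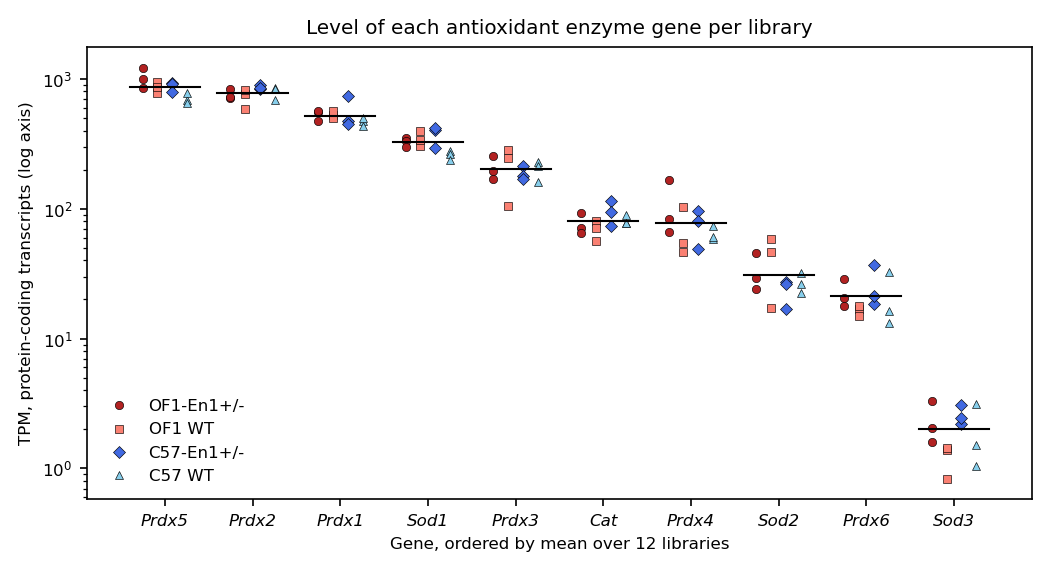
TPM (log axis) of the 10 genes in each of the 12 libraries, by group, with a line at the mean over the libraries; genes are ordered by that mean. Prdx5, Prdx2 and Prdx1 lay at or above 431.2 TPM in every library, and Sod3 between 0.836 and 3.28 TPM.

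The genes also differed in how much they varied between libraries. The SD of log2 CPM (reads scaled to library depth) over the 12 libraries was 0.645 for Sod3, 0.592 for Prdx4 and 0.500 for Sod2, and smallest, 0.248, for Prdx2. The plot of TPM by gene shows the same spread, with SWB (OF1-En1+/-) standing above the other libraries in Prdx4, at 167.8 TPM against 46.4 to 103.2 TPM.

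The differences among these genes that passed the edgeR test lay within Prdx2, the cytosolic peroxiredoxin abundant in neurons and red blood cells. Its total did not differ detectably between the strains, but OF1 libraries held more of Prdx2-205, a transcript that keeps part of an intron, and less of Prdx2-203, a coding transcript with a longer 5′ leader. Both transcripts were singled out after their values had been seen, when all 35 tested transcripts of the 10 genes (of 45 annotated) were followed in a fit of 44523 single transcripts. Prdx2 lies on chromosome 8 (GRCm39, plus strand, 85693354 to 85702350). Prdx2-205 (ENSMUST00000127215) has 2 exons, the first of which begins inside an intron of Prdx2-201. That exon (85698085 to 85698321) also holds an exon of Prdx2-201, Prdx2-203 and Prdx2-208 (85698191 to 85698321). The other (85700629 to 85700940) lies within their last exon (85700629 to 85701464). How reads shared by these transcripts were divided among them was not tested. In the later annotation used for exons, Prdx2-203 (ENSMUST00000109734) and Prdx2-201 both splice into the exon that holds the start codon, but Prdx2-203 does so 88 bases earlier. The models to which reads had been assigned were not these: they were 1612 bases long for Prdx2-203, 1500 for Prdx2-201 and 1175 for Prdx2-208, against 2232, 2144 and 1755 in the later annotation, and 549 in both for Prdx2-205, so the structure shown is that of the later models. The acceptor sites are shown to tell Prdx2-203 from Prdx2-201 by where they splice, with the first 10 exonic bases of each in capitals:
Prdx2-203 acceptor, chr8:85696761-85696790, plus strand: ctctcggttttactatctagACTTAGCACC
Prdx2-201 acceptor, chr8:85696849-85696878, plus strand: gtgtgggtctctgatttcagTCATGGCCTC
Both sites end their intron in ag, and the start codon of Prdx2, which begins at 85696871, lies downstream of both, so the coding sequence of these models is the same. The first exon of Prdx2-208 (85696463 to 85696973) runs through both sites. All bases shown are therefore exonic in Prdx2-208, and their presence alone does not mark Prdx2-203. In that annotation no other gene had an exon over either acceptor, but exons of Prdx2-203 and Prdx2-201 each shared 665 bases with Rnaseh2a on the opposite strand, and Prdx2-205 shared 0 bases with any other gene. Reads assigned to Rnaseh2a came to 5.01 to 6.38% of those on coding Prdx2 transcripts in OF1 and to 3.02 to 5.63% in C57 libraries, and their part in the transcript differences was not tested.

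Prdx2-205 had 5599, 4238 and 5568 normalized counts in OF1-En1+/- libraries and 5859, 5165 and 5141 in OF1 WT libraries, against 3266, 4852 and 2659 in C57-En1+/- and 1439, 1556 and 2119 in C57 WT libraries. OF1 and C57 libraries overlapped only through C572, which stood above the lowest OF1 library. Over both genotypes the transcript was higher in OF1 (log2 fold change 1.09, SE 0.17, edgeR quasi-likelihood test with Benjamini-Hochberg adjustment over all transcripts, adjusted p = 0.0137). In WT mice alone the log2 fold change was 1.66 (SE 0.25, edgeR adjusted p = 0.0179), and in En1+/- mice it was 0.52 (SE 0.24, edgeR adjusted p = 0.776). Of all single transcripts tested, 0.862% were called over both genotypes, 0.332% in WT mice and 0.296% in En1+/- mice by edgeR, and 3.85%, 2.64% and 2.65% by DESeq2.

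Prdx2-203 showed the opposite order. It had 1536, 1668 and 2140.4 normalized counts in OF1-En1+/- and 1726, 1823 and 2220.4 in OF1 WT libraries, against 4385, 4101 and 3672 in C57-En1+/- and 2772, 3515 and 4181 in C57 WT libraries. All 6 OF1 libraries lay below all 6 C57 libraries, though how many of all transcripts lay apart likewise was not counted. Its log2 fold change was −1.02 over both genotypes (SE 0.14, edgeR adjusted p = 0.00623), −1.19 in En1+/- mice (SE 0.20, edgeR adjusted p = 0.0468) and −0.86 in WT mice (SE 0.20, edgeR adjusted p = 0.193, DESeq2 adjusted p = 0.00196). The main coding transcripts Prdx2-201 and Prdx2-208 did not pass the test, with log2 fold changes over both genotypes of −0.24 (SE 0.15) and −0.07 (SE 0.12). DESeq2 also called Prdx2-207, another transcript with a retained intron, over both genotypes (DESeq2 adjusted p = 0.0173, edgeR adjusted p = 0.32). It was sparse, with 6.82, 0 and 0 normalized counts in OF1-En1+/- and 9.05, 0 and 0 in OF1 WT libraries, against 86.9, 132.9 and 11.3 in C57-En1+/- and 14.7, 79.0 and 34.0 in C57 WT libraries, and without C572 the call was lost (DESeq2 adjusted p = 0.12).

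As shares of the gene the pattern needs no scaling between libraries. Transcripts not annotated as protein coding, chiefly Prdx2-205, took 18.8, 15.2 and 15.8% of all Prdx2 reads in OF1-En1+/- and 19.1, 17.7 and 14.7% in OF1 WT libraries, against 8.56, 11.5 and 7.97% in C57-En1+/- and 6.67, 5.46 and 6.39% in C57 WT libraries. Of the reads on protein-coding Prdx2 transcripts, Prdx2-203 took 6.29, 7.08 and 7.16% in OF1-En1+/- and 6.93, 7.59 and 7.39% in OF1 WT libraries, against 12.2, 10.7 and 11.9% in C57-En1+/- and 13.5, 12.4 and 13.0% in C57 WT libraries. The 6 OF1 and 6 C57 libraries did not overlap in either share, with C572, SW22 and C572S among them. How often such shares lay apart over all genes was not counted.

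Leaving out each library in turn kept both transcripts past the threshold over both genotypes in all 12 fits, with log2 fold changes of 1.01 to 1.23 for Prdx2-205 and −1.10 to −0.95 for Prdx2-203. Within WT mice Prdx2-205 stayed past it in 8 of 12 such fits, and within En1+/- mice Prdx2-203 in none (edgeR adjusted p = 0.0529 to 0.219). For Prdx2-205 in WT mice the call was lost without SW31 (edgeR adjusted p = 0.0522), SWG (0.0518), C5710 (0.0968) or C572S (0.0861), with log2 fold changes of 1.55 to 1.67 in those fits. Without SW22 and C572S together the edgeR adjusted p over both genotypes was 0.0523 for Prdx2-205 and 0.0737 for Prdx2-203, and without SW22, C572S and C572 it was 0.0315 and 0.142, with log2 fold changes of 1.26 and −0.99. Without the 3 libraries DESeq2 still called both transcripts over both genotypes (DESeq2 adjusted p = 7.25e-14 for Prdx2-205 and 9.45e-05 for Prdx2-203) but no longer Prdx2-203 in WT mice (DESeq2 adjusted p = 0.11). Without C572 alone, Prdx2-205 in En1+/- mice had a log2 fold change of 0.79 (SE 0.22, edgeR adjusted p = 0.457) and passed DESeq2 (DESeq2 adjusted p = 0.00674), which it had not with all libraries (DESeq2 adjusted p = 0.31). The sums of the marker lists overlapped between all OF1 and all C57 libraries. The dopaminergic sum, however, was lower in OF1 WT than in C57 WT libraries without overlap. Reads on the mitochondrial genome were likewise lower in OF1-En1+/- than in C57-En1+/- libraries. The part of cell content in the transcript differences was not tested. Salmon assigned reads to an index of transcripts annotated on the reference genome, which is of a C57 strain. The part that OF1 sequence variants play in where reads were assigned was not tested.

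**Figure D2:**
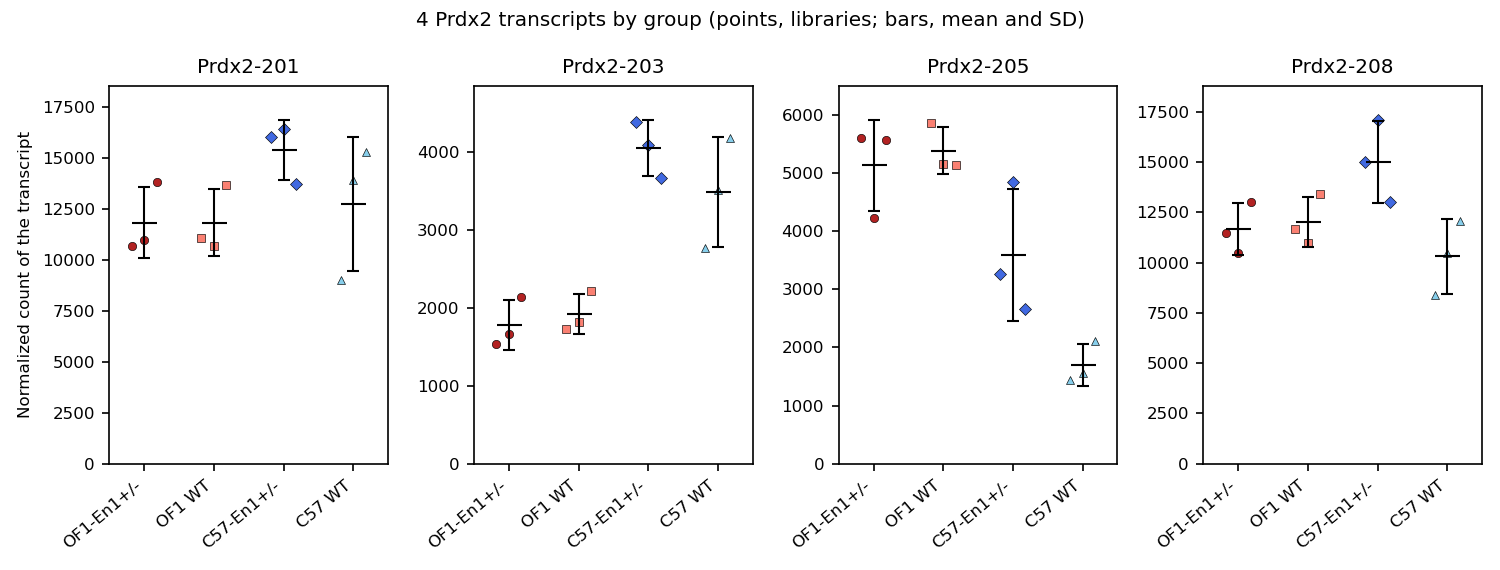
Normalized counts of 4 Prdx2 transcripts (vertical axes from 0) in each library, by group; bars give the mean and SD of 3 libraries. Prdx2-205 lay between 4238 and 5859 in OF1 libraries and between 1439 and 4852 in C57 libraries, and Prdx2-203 between 1536 and 2220 in OF1 and between 2772 and 4385 in C57 libraries.

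Between genotypes Prdx2-205 was higher in C57-En1+/- than in C57 WT libraries without overlap. The number of all transcripts apart likewise was not counted. Prdx2-205 had a log2 fold change of 1.08 (SE 0.24) there, which did not pass the edgeR test (adjusted p = 0.787) but passed DESeq2 (DESeq2 adjusted p = 0.000679). C572 was its highest C57 library. Without C572 the log2 fold change was 0.79 (SE 0.22, edgeR adjusted p = 1, DESeq2 adjusted p = 0.00719), and without SW22, C572S and C572 it was 0.74 (SE 0.24, DESeq2 adjusted p = 0.0483). In that comparison edgeR called 0% and DESeq2 1.28% of all single transcripts. The interaction of Prdx2-205 was −1.14 (SE 0.34, edgeR adjusted p = 0.799, DESeq2 adjusted p = 0.0406), where DESeq2 called 1.65% of single transcripts. DESeq2 also called Prdx2-208 (log2 fold change 0.54, DESeq2 adjusted p = 0.0311) and Sod1-201, which holds nearly all Sod1 reads (log2 fold change 0.86, DESeq2 adjusted p = 0.0383). Without C572 these 2 calls and that of the interaction were lost, with log2 fold changes of 0.44 (DESeq2 adjusted p = 0.196) for Prdx2-208, 0.63 (DESeq2 adjusted p = 0.268) for Sod1-201 and −0.87 (DESeq2 adjusted p = 0.0779) for the interaction. In OF1 mice Prdx2-205 did not differ detectably between the genotypes (log2 fold change −0.07, SE 0.24, edgeR adjusted p = 1). DESeq2 called 1.77% of single transcripts there and 2.12% between the genotypes over both strains, and edgeR 0% in both.

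Prdx6 and Sod2 also had much of their signal outside coding transcripts, in shares that overlapped between the strains. Prdx6 reduces phospholipid peroxides and is glutathione-dependent. Only Prdx6-202 among its abundant transcripts is annotated as coding, and 83.0 to 86.6% of Prdx6 reads per library fell on other transcripts, with 52.0 to 57.7% on Prdx6-208 and 25.4 to 31.2% on Prdx6-207. Prdx6-208, annotated as subject to nonsense-mediated decay, skips an exon of 157 bases, a length that is not a multiple of 3. The exon, on the minus strand of chromosome 1, is shown because its presence separates Prdx6-202 and Prdx6-207 from Prdx6-208:
Prdx6 exon, chr1:161074827-161074983, minus strand: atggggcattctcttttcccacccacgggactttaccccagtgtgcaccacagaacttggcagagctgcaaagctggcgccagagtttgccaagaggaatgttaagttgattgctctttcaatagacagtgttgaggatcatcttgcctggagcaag
Sod2, the manganese enzyme of the mitochondrial matrix, had 28.1 to 60.0% of its reads on transcripts not annotated as coding, mostly Sod2-207 (31.1% on average). The shares were 34.5, 43.0 and 48.4% of Sod2 reads in OF1-En1+/- and 28.1, 45.5 and 34.7% in OF1 WT libraries, against 49.3, 60.0 and 42.9% in C57-En1+/- and 44.6, 38.2 and 48.6% in C57 WT libraries. Prdx6-207 and Prdx6-208 have shorter models than Prdx6-202 (913 and 1294 bases, against 2387 in the files), and how shared reads were divided among them was not tested.

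At the level of genes, none of the 10 passed the threshold of 0.05 in any of the 7 comparisons. In C57 mice all 10 nevertheless had estimates above 0, that is, toward higher levels in the hemizygous animals. Their median was 0.53 on the log2 scale, against −0.02 over all genes tested, of which 48.3% had estimates above 0. Called genes were 0% of those tested (0 of 18529 by edgeR and by limma voom with quality weights, 0.475% by DESeq2). At an unadjusted p under 0.05 were 4 of the 10 (Sod1, Prdx5, Cat and Prdx1) and 8.51% of all genes, and the groups did not overlap, with C57-En1+/- higher, in 3 of the 10 (Sod1, Cat and Prdx5) and in 6.65% of all genes (7.77% lay apart in the other direction, none of the 10 among them). In TPM the Cat groups overlapped.

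Sod1, the copper-zinc enzyme of the cytosol, showed the largest of these estimates relative to its error. It had 5420.3, 6539 and 3547 normalized counts in C57-En1+/- libraries, against 2953, 2804 and 2821 in C57 WT libraries. Every C57-En1+/- library lay above every C57 WT library, and the C57 WT libraries were close together. The log2 fold change was 0.85 (SE 0.24, 95% interval 0.30 to 1.41, edgeR adjusted p = 0.558, DESeq2 adjusted p = 0.0938). In OF1 mice Sod1 had 4003, 3509 and 3713 normalized counts in OF1-En1+/- libraries, against 3437, 5907 and 4473 in OF1 WT libraries, which overlapped, with a log2 fold change of −0.30 (SE 0.24, edgeR adjusted p = 0.763). The genotype by strain interaction of Sod1, the effect in OF1 minus that in C57, was −1.15 (SE 0.34, edgeR adjusted p = 0.69), so a difference between the strains in the effect of the genotype was not shown.

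Sod2 overlapped between the C57 genotypes, with 5983, 4054 and 5038 normalized counts in C57-En1+/- libraries, against 4246, 5615 and 4461 in C57 WT libraries (log2 fold change 0.07, SE 0.35, 95% interval −0.73 to 0.88). OF1 libraries spread more widely, with 9052, 5344 and 4843 in OF1-En1+/- and 11004, 3875 and 9082 in OF1 WT libraries (log2 fold change −0.32, SE 0.35). SW31, SWG and SW21 were high and SW7 low, so the groups overlapped in both strains. Sod3, the secreted superoxide dismutase, was the only gene of the 10 whose OF1 genotypes did not overlap: 400.1, 230.5 and 201 normalized counts in OF1-En1+/- libraries, against 162, 118 and 176 in OF1 WT libraries (log2 fold change 0.87, SE 0.45, edgeR adjusted p = 0.6). Of all genes, 7.32% were likewise higher in OF1-En1+/- without overlap. In C57 mice it had 301, 464 and 295 in C57-En1+/- and 318, 113 and 188 in C57 WT libraries, which overlapped (log2 fold change 0.78, SE 0.45). Over both strains the log2 fold change of Sod3 was 0.82 (SE 0.32, edgeR adjusted p = 0.397), at the lowest level of the 10 genes. In that comparison Sod3 was the 1 gene of the 10 at an unadjusted p under 0.05, against 11.1% of all genes, and 0% of all genes were called by edgeR and 1.39% by DESeq2.

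Cat, the peroxisomal catalase, had 6713, 11602 and 7591 normalized counts in C57-En1+/- libraries, against 5281, 6513 and 6474 in C57 WT libraries (log2 fold change 0.50, SE 0.21, edgeR adjusted p = 0.571). The groups were apart by a narrow margin, and C572 stood well above the other 5 libraries. In OF1 mice Cat had 5770.3, 6985 and 5449.8 in OF1-En1+/- and 6242, 5375 and 5886 in OF1 WT libraries, with a log2 fold change of 0.06 (SE 0.21, 95% interval −0.43 to 0.54).

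**Figure D3:**
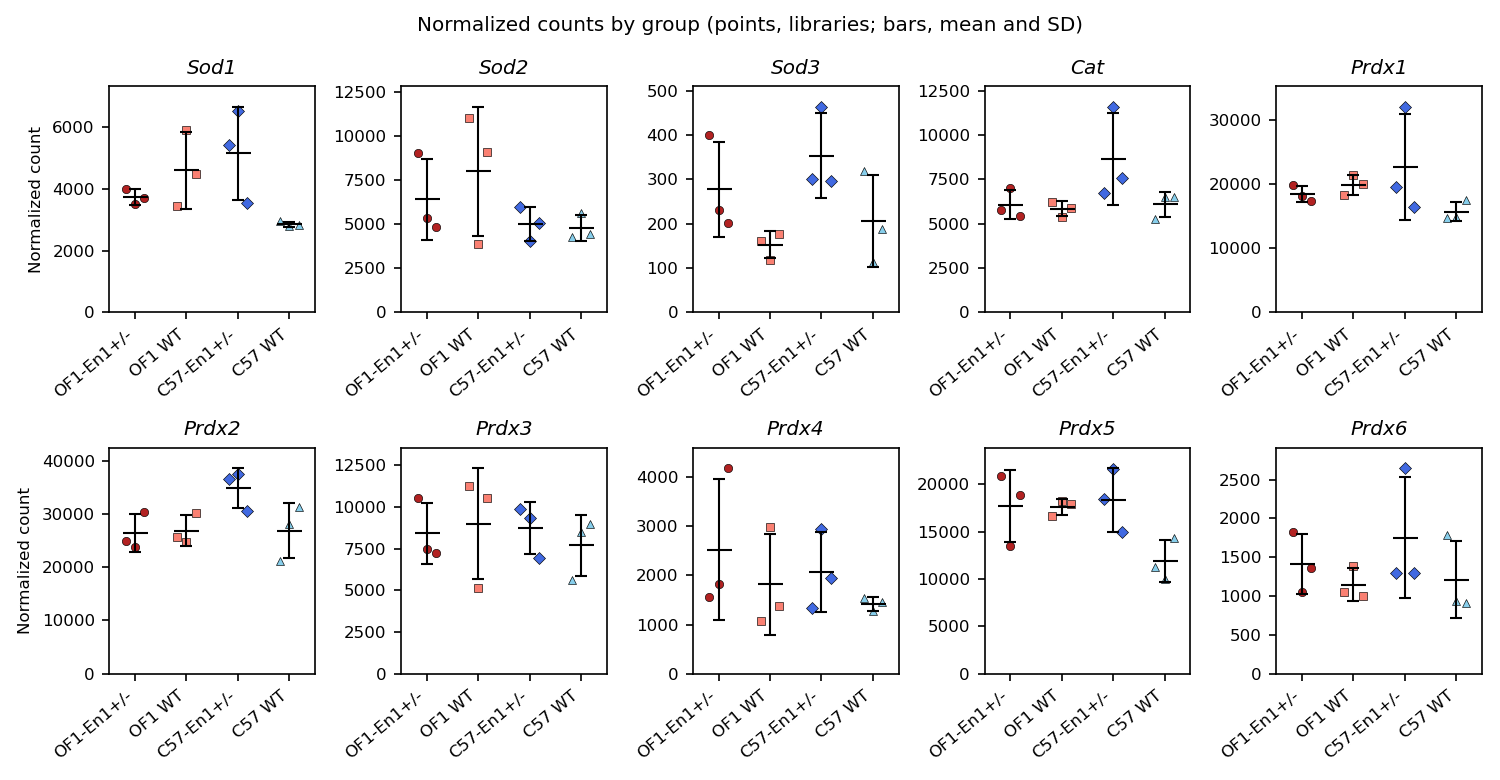
Normalized counts of the 10 genes (vertical axes from 0) in each library, by group; bars give the mean and SD of 3 libraries. In Sod1 the C57 WT libraries lay between 2804 and 2953 and the C57-En1+/- libraries between 3547 and 6539.

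Among the peroxiredoxins Prdx5, which reduces peroxides and peroxynitrite in mitochondria and elsewhere, stood apart between the C57 genotypes. It had 18461, 21668 and 14929.6 normalized counts in C57-En1+/- libraries, against 11302, 9968 and 14304 in C57 WT libraries, without overlap (log2 fold change 0.63, SE 0.21, edgeR adjusted p = 0.558). In OF1 mice it had 20859, 13457 and 18856 in OF1-En1+/- and 16609, 18218 and 17966 in OF1 WT libraries, with a log2 fold change of 0.01 (SE 0.21). Prdx3, the other mitochondrial peroxiredoxin, overlapped in both strains: 10514, 7495 and 7227 in OF1-En1+/- and 11272, 5160.3 and 10543 in OF1 WT libraries, and 9883, 9323 and 6934 in C57-En1+/- and 5600.4, 8522 and 8967 in C57 WT libraries. Its log2 fold changes were −0.10 (SE 0.30) in OF1 and 0.18 (SE 0.30) in C57 mice.

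Prdx1, a cytosolic peroxiredoxin that is also induced by oxidative stress in many cells, had 19569.6, 32063 and 16340.4 normalized counts in C57-En1+/- libraries, against 14708, 14910.3 and 17417 in C57 WT libraries (log2 fold change 0.53, SE 0.22, edgeR adjusted p = 0.571). The value of C572 was far above the rest and the other libraries overlapped. In OF1 mice Prdx1 had 19786, 18122 and 17281 in OF1-En1+/- and 18202, 21426 and 19916 in OF1 WT libraries (log2 fold change −0.11, SE 0.22). Prdx2 over its coding transcripts had 36601, 37509 and 30523 in C57-En1+/- and 21282, 28157 and 31289.8 in C57 WT libraries (log2 fold change 0.37, SE 0.18, edgeR adjusted p = 0.603), and 24867, 23822 and 30444 in OF1-En1+/- and 25676, 24818 and 30168 in OF1 WT libraries (log2 fold change −0.03, SE 0.18). Both pairs of groups overlapped.

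Prdx4, which reduces peroxide released by disulfide formation in the endoplasmic reticulum, was led by single libraries: 1570.4, 1825 and 4189.8 normalized counts in OF1-En1+/- and 1069.9, 2995 and 1387 in OF1 WT libraries, and 1338, 2952 and 1943 in C57-En1+/- and 1536, 1269 and 1467 in C57 WT libraries. SWB, SW7 and C572 were high. The log2 fold changes were 0.48 (SE 0.45) in OF1 and 0.55 (SE 0.45) in C57 mice. Prdx6 over its coding transcripts had 1822, 1048 and 1359.8 in OF1-En1+/- and 1054, 1389 and 995 in OF1 WT libraries, and 1297, 2648 and 1300.1 in C57-En1+/- and 1789, 937 and 908 in C57 WT libraries, overlapping in both strains. Summed over all of its transcripts, Prdx6 had a log2 fold change of 0.45 over both strains (SE 0.20, edgeR adjusted p = 0.439), against 0.41 (SE 0.25, edgeR adjusted p = 0.565) over the coding ones.

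The C57 pattern depended on C572. Without it all 10 estimates stayed above 0, but their median was 0.22, against 0.48 to 0.64 without any other single library, and the log2 fold changes of Cat and Prdx1 were 0.23 and 0.20, those of Sod1 and Prdx5 0.65 and 0.49. Without C5710 8 of 10 estimates were above 0, and without C5713 9 of 10. At an unadjusted p under 0.05 were 2 of 10 without C572, against 4.64% of all genes. The count was also 2 of 10 without SW21 and without C572S, in fits where the share of all genes was not counted. Without SW22, C572S and C572, 9 of 10 estimates were above 0, with a median of 0.26. In that fit 0 of 10 had an unadjusted p under 0.05, against 4.14% of all genes. Other measures were apart between the same C57 groups: reads on the mitochondrial genome took 5.23, 5.81 and 4.06% of counts in C57-En1+/- libraries, against 2.47, 3.17 and 2.59% in C57 WT libraries. Erythroid markers (5 of 6 detected in every library, Slc4a1 at 0 in some) summed to 30336, 32739 and 60073 normalized counts in C57-En1+/- libraries, against 16989.5, 15726 and 19222 in C57 WT libraries, and endothelial markers (6 of 6 detected) to 7005, 10587 and 10563, against 6182, 5018 and 6202. Prdx2 and Cat are abundant proteins of red blood cells. The part of these measures in the result was not tested. With library sizes taken without mitochondrially encoded genes, the same count of 4 genes had an unadjusted p under 0.05. The share of all genes in that fit was not counted.

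In OF1 mice the 10 genes showed no common direction: 5 estimates were above 0 and 5 below (48.2% of all genes were above 0), with a median log2 fold change of −0.01, and none had an unadjusted p under 0.05, against 8.81% of all genes. Calls among all genes were 0% by edgeR and by limma voom, and 1.05% by DESeq2. OF1-En1+/- libraries were apart from OF1 WT libraries in oligodendrocyte markers (134526, 66215 and 72094 against 50160.1, 51547 and 25132 normalized counts, 6 of 6 detected in these libraries) and in markers of subthalamic and posterior hypothalamic neurons (1408, 3273 and 881 against 64642, 12239.7 and 70559, with Foxa1 and Barhl1 at 0 in SW21, SWB and SW7), whose part in these values was not tested. The interaction estimates were below 0 in 9 of 10 genes, with a median of −0.40, against 0.01 over all genes, but they share the C57 libraries described above. Without C572 3 of 10 were above 0, with a median of −0.26. By limma voom with all libraries 3 of 10 were also above 0. For the interaction edgeR called 0% of all genes (6.89% at an unadjusted p under 0.05) and DESeq2 0.243%, with none of the 10 called by either.

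**Figure D4:**
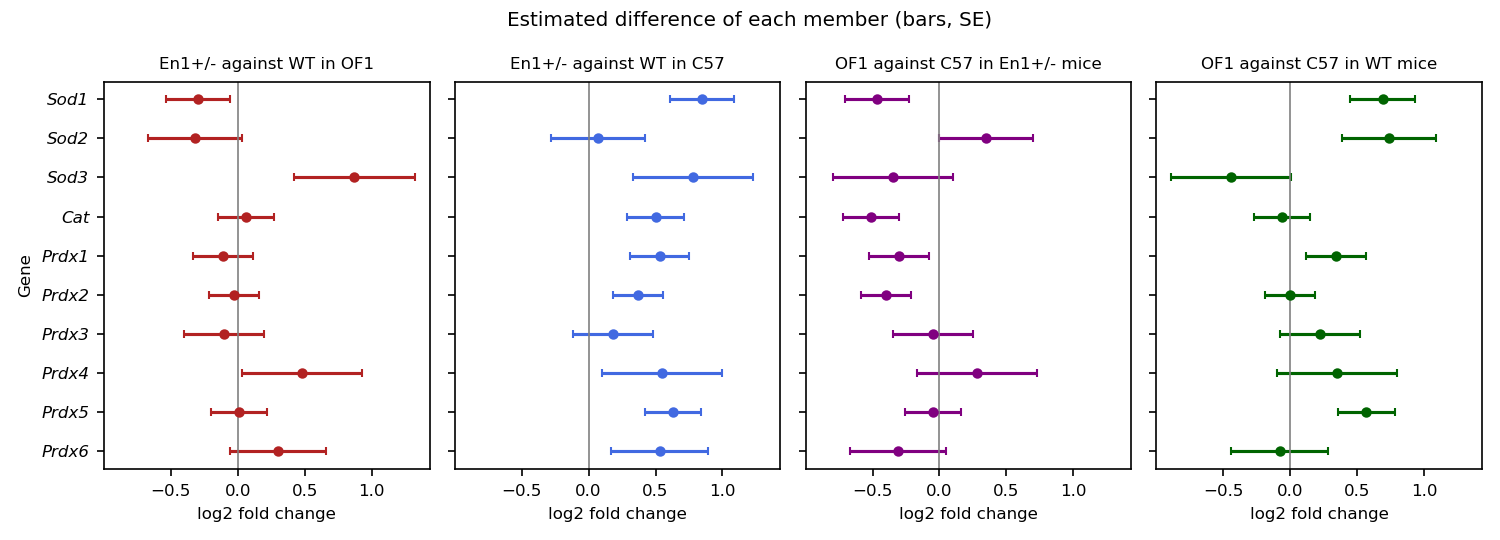
Log2 fold changes of the 10 genes (horizontal axes) with their SE in 4 comparisons of 3 against 3 libraries, En1+/- over WT in each strain and OF1 over C57 in each genotype. All 10 points lie above 0 in C57-En1+/- over C57 WT, and Sod1 changes side between the comparisons.

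Between the strains no gene of the 10 was called either, by edgeR, DESeq2 or limma voom, where edgeR called 0.977% of all genes in WT mice, 0.874% in En1+/- mice and 1.96% over both genotypes. DESeq2 called 2.50%, 2.41% and 3.62% of all genes in the same order, and limma voom 1.38%, 0.793% and 2.39%. At an unadjusted p under 0.05 were 2 of the 10 in WT mice (8.38% of all genes), 1 in En1+/- mice (7.97%) and 1 over both genotypes (8.69%). In WT mice Sod1, Prdx1 and Prdx5 were higher in OF1 without overlap (3 of 10 genes, against 6.65% of all genes). In TPM the Prdx5 groups overlapped, at 780.9 in SW7 against 783.1 in C5743. The log2 fold change of OF1 over C57 was 0.69 for Sod1 (SE 0.24, edgeR adjusted p = 0.4) and 0.57 for Prdx5 (SE 0.21, edgeR adjusted p = 0.454). This comparison and that of the C57 genotypes share the 3 C57 WT libraries, which held the lowest Sod1 and, with one OF1-En1+/- library, the lowest Prdx5 counts. The sum of dopaminergic markers (6 of 6 detected) was lower in OF1 WT libraries without overlap. It was 1813, 4286 and 2598 normalized counts in OF1 WT, against 4599, 833146 and 9933 in C57 WT libraries. Singly, Slc6a3 and Slc18a2 were lower without overlap, while Th, Ddc, Slc10a4 and Aldh1a1 overlapped. Aldh1a1 had 724.7, 544.9 and 573.9 in OF1 WT, against 426.3, 52351.6 and 378.0 in C57 WT libraries. The part of these markers in these values was not tested. In En1+/- mice 2 of 10 estimates were above 0, against 46.7% of all genes, and the median was −0.31. Cat had a log2 fold change of −0.51 (SE 0.21, edgeR adjusted p = 0.566) and Prdx2, lower in every OF1-En1+/- than in every C57-En1+/- library, as were 6.77% of all genes (6.24% were higher without overlap), had −0.40 (SE 0.18, edgeR adjusted p = 0.628). The Prdx2 groups were apart by a narrow margin, 30444 in SWB against 30523 in C575, and over all Prdx2 transcripts they overlapped, with 35888 in SWB against 33468 in C575. Without C572 the estimates of this comparison were above 0 in 5 of 10 genes, with a median of 0.02. Reads on the mitochondrial genome were also apart here, at 3.72, 2.71 and 3.04% in OF1-En1+/-, against 5.23, 5.81 and 4.06% in C57-En1+/- libraries, and their part was not tested.

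Over both genotypes Sod2 had the lowest p of the 10, with a log2 fold change of OF1 over C57 of 0.55 (SE 0.25, edgeR adjusted p = 0.568). Its counts reached 9052 in an OF1-En1+/- and 11004 and 9082 in OF1 WT libraries, against at most 5983 in any C57 library, but the lowest OF1 library, SW7, was below all 6 C57 libraries. Over all Sod2 transcripts the log2 fold change was 0.31 (SE 0.19, edgeR adjusted p = 0.794).

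The mitochondrial enzymes made up 35.2 to 48.0% of the total in the 12 libraries. Sod2, Prdx3 and Prdx5 together held 48.0, 39.7 and 42.3% of the summed TPM of cytosolic and mitochondrial members in OF1-En1+/- libraries, 44.6, 37.5 and 40% in OF1 WT, 39.6, 35.2 and 38.0% in C57-En1+/- and 37.3, 37.0 and 39.1% in C57 WT libraries. The group means were 43.3 ± 4.24%, 40.7 ± 3.59%, 37.6 ± 2.20% and 37.8 ± 1.14% in the same order (SD, n = 3 each). The genotypes differed by 2.65 percentage points in OF1 and −0.19 in C57 mice, less than the SD of the groups. Left without Prdx5, they differed by −0.49 points in OF1 and −2.35 in C57 mice. The latter (10.5 ± 1.5% in C57-En1+/- against 12.8 ± 1.56% in C57 WT libraries) exceeded the SD of either group, with overlap. OF1-En1+/- exceeded C57-En1+/- mice by 5.75 points, with no overlap between the groups although SW22 and C5713 nearly met, and OF1 WT exceeded C57 WT mice by 2.91 points, with overlap. These values are a description without a test. The difference between the hemizygous groups came to 2.22 points without Prdx5 and 1.70 points with all transcripts of each gene, and that between the WT groups to −0.72 points with all transcripts and 5.30 points with normalized counts in place of TPM. Without SW31 the difference between the WT groups was 0.97 points. Without SW21 that between the hemizygous groups was 3.42 points and that between the OF1 genotypes 0.31 points, and with normalized counts the OF1 genotypes differed by −0.38 points. The cytosolic members summed to 1639.8 ± 9.14 TPM in OF1-En1+/-, 1618 ± 118.2 in OF1 WT, 1810 ± 209.5 in C57-En1+/- and 1542 ± 60.7 in C57 WT mice.

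**Figure D5:**
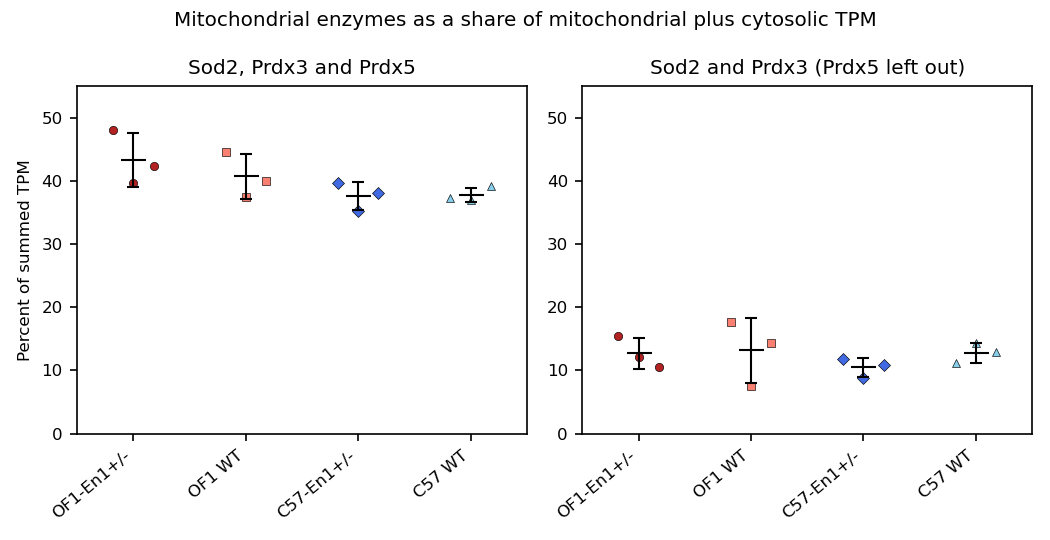
Summed TPM of mitochondrial enzymes as a percent of mitochondrial plus cytosolic enzymes (vertical axis from 0) in each library, by group, with Prdx5 counted (left) and without it (right); bars give the mean and SD. The share lay between 35.2 and 48.0% with Prdx5 and between 7.54 and 17.6% without it.

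The enzymes that serve these 10 genes' products were followed in a list of 24 genes: the Sod1 copper chaperone Ccs, thioredoxins and their reductases, sulfiredoxin (Srxn1), sestrins, glutathione peroxidases, glutaredoxins and glutathione synthesis. All 24 were tested and, with all 12 libraries, none passed the threshold in any of the 7 comparisons by edgeR, DESeq2 or limma voom. In C57-En1+/- against C57 WT mice 12 estimates were above 0 and 12 below, with a median of −0.01, and 5 had an unadjusted p under 0.05, against 48.3% above 0 and 8.51% under that p over all genes. The groups were apart in 2 of the 24 with C57-En1+/- higher and in 4 with it lower, against 6.65% and 7.77% of all genes. Without C572, 1 of the 24 had an unadjusted p under 0.05 (4.64% of all genes). Gpx1, the main glutathione peroxidase, had 10409.6, 11769 and 12755 normalized counts in C57-En1+/- libraries, against 6531, 7772 and 8271 in C57 WT libraries (log2 fold change 0.63, SE 0.18, edgeR adjusted p = 0.558, and 0.62, SE 0.21, without C572). Txn1, the cytosolic thioredoxin that recharges Prdx1 and Prdx2, had 12815, 18149 and 10039.9, against 7816, 6951 and 8977 (log2 fold change 0.79, SE 0.26, edgeR adjusted p = 0.558, and 0.53, SE 0.25, without C572). Neither pair of groups overlapped. Glrx, a cytosolic glutaredoxin, followed with a log2 fold change of 0.96 (SE 0.33), which was 0.42 (SE 0.24) without C572, and overlapping groups.

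In OF1 mice the lowest p of the list was that of Sesn3, a sestrin, with 1094, 1063 and 1068 normalized counts in OF1-En1+/- libraries, against 1390.3, 2469 and 1694 in OF1 WT libraries. Its groups did not overlap (log2 fold change −0.78, SE 0.23, edgeR adjusted p = 0.473), as in 2 of the 24, against 7.97% of all genes lower without overlap. It was the 1 gene of the list at an unadjusted p under 0.05, against 8.81% of all genes. Txnrd2, the mitochondrial thioredoxin reductase that serves Prdx3, had a log2 fold change of −0.44 in OF1 (SE 0.25) and −0.50 over both strains (SE 0.17, edgeR adjusted p = 0.373), and Gpx3, the plasma glutathione peroxidase, −1.35 in OF1 (SE 0.77). Over both strains Gpx1 and Glrx had log2 fold changes of 0.39 (SE 0.13) and 0.62 (SE 0.23), which were 0.38 and 0.35 without C572. The interactions with the lowest p were those of Sesn3 (−0.96, SE 0.33), Txn1 (−1.03, SE 0.36, and −0.77 without C572) and Sesn2 (1.08, SE 0.48). Between the strains the lowest p were those of Srxn1, which repairs overoxidised peroxiredoxins, Gpx1 and Sesn3 in En1+/- mice, with log2 fold changes of OF1 over C57 of 0.56 (SE 0.26), −0.37 (SE 0.18) and −0.45 (SE 0.23), of Sesn3, Sesn2 and Txn1 in WT mice (0.52, −0.73 and 0.54), and of Txnip, Glrx and Srxn1 over both genotypes (−0.83, 0.35 and 0.27). Without C572, which held 14208 normalized counts of Glrx against at most 10591 in the other libraries, Glrx had a log2 fold change of 0.62 over both genotypes (SE 0.16, edgeR adjusted p = 0.122) and passed DESeq2 (DESeq2 adjusted p = 0.0079), where DESeq2 called 3.8% of all genes.

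For the 3 members that varied most, the protein-coding genes with the most similar pattern over the 12 libraries were sought, by the root mean square difference of log2 CPM after centring and scaling each gene. For Sod3 they were Rasgrp3 (0.452), Lpar6 (0.493) and Asap1 (0.496), where the median gene had 1.40. For Prdx4 they were Trpm6 (0.358), C130074G19Rik (0.388) and Tbrg1 (0.411), and for Sod2 Tm6sf1 (0.485), Oxr1 (0.493) and Mterf2 (0.513), where the median gene had 1.42 and 1.43. These are likenesses over the same 12 libraries, with their depth and cell content in common.

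Pseudogene copies took few of these reads. At least 95% identity over at least 300 bases was found between members and 4 pseudogenes (of Prdx1, Prdx2 and Sod1), each with at most 0.123% of the member's reads. The library kit did not mark strand, and in the later annotation exons of Sod1 share 4217 bases with Scaf4, those of Prdx5 share 732 bases with Trmt112, and those of Prdx2 share 765 bases with Rnaseh2a, 173 with Junb and 148 with Gm49661, on the opposite strand. Exons of Sod2 share 803 bases with Gm64481 and 363 with Gm36226, and those of Prdx1 share 576 with AV051173, also on the opposite strand. Likewise, those of Prdx4 share 373 bases with Acot9, and those of Prdx6 share 345 with SLC9C2 and 235 with Gm70781. Reads from those stretches cannot be told apart. Reads assigned to Scaf4 came to 4.68 to 13.4% of those assigned to Sod1, and reads assigned to Trmt112 to 7.05 to 24.1% of those assigned to Prdx5.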

How the data were processed

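Laser-microdissected SNpc RNA of 12 mice was amplified with SMART-Seq v4 and sequenced from both ends. The authors quantified transcripts with Salmon against GENCODE transcripts of GRCm39, and the deposited values are estimated counts and TPM per transcript (TPM is corrected by Salmon for effective length). Replicates were not pooled. Of 140790 transcripts, 139555 (99.1%) were matched by ID to a later GENCODE release (M39), which supplied names, types and exons. Estimated counts were summed over protein-coding transcripts of each coding gene, rounded, and scaled by edgeR's TMM factors. That leaves out 42992 other transcripts of coding genes.

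The 18529 genes whose normalized counts averaged 10 or more were tested in edgeR (4.0.16, R 4.3.3) with a quasi-likelihood model of 4 groups over all 12 libraries, with Benjamini-Hochberg adjustment at 0.05. Scripts were tested on simulated data. DESeq2 (1.42.0) and limma voom (3.58.1) were alternatives, and copies were sought with blastn (2.17.0+). Single transcripts were tested the same way, a choice made after seeing the data, as were leaving out SW22, C572S and C572 together and refitting transcripts and helper genes without C572. An exact permutation test of 3 against 3 cannot go below p = 0.1 and was not used. The 10 members were all described. Of the 24 helper genes, the 3 with the lowest p in each comparison were named. The members and lists were chosen with earlier results of these data known. No replicate pair agreed within sampling noise (chi-square per degree of freedom 28.5 to 547). The labels name separate mice. The sequence of 1 Prdx2 stretch is not reported here.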

Additional observations from a re-analysis of the deposited data

Results flagged for a closer look

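Reads that the sums over protein-coding transcripts leave out made up a measurable part of 3 genes. They were 5.46 to 19.1% of Prdx2 reads per library, 83.0 to 86.6% of Prdx6 reads and 28.1 to 60.0% of Sod2 reads. The Prdx2 range holds 14.7 to 19.1% in OF1 libraries and 5.46 to 11.5% in C57 libraries, while the ranges of Prdx6 and Sod2 overlapped between the strains. These shares are a description and were not tested.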

How the results depend on the processing

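Of 1720 estimates of single members under 25 alternative settings, 1631 kept their direction and side of the threshold and 89 changed sign. In each of those 89 the main or the alternative estimate was smaller than its SE, and a sign change was counted as a reversal only where both exceeded it, which none did. No member was called at the level of genes in any of them (lowest adjusted p 0.0938, DESeq2). Counts over all genes moved more. In the order genotype in OF1, genotype in C57, strain in En1+/- mice, strain in WT mice, strain over both genotypes, genotype over both strains and interaction, edgeR called 0, 0, 162, 181, 363, 0 and 0 genes. DESeq2 called 195, 88, 446, 463, 670, 257 and 45, and with all transcripts of each gene 214, 73, 456, 468, 696, 258 and 45. For the 3 strain comparisons, protein-coding genes alone gave 51, 61 and 155. Fits of the 6 libraries compared gave 106 in En1+/- and 117 in WT mice. Without SW22 and C572S the counts were 1 for the genotype in OF1, 103 and 103 for the strain in En1+/- and WT mice, and 1 for the genotype over both strains. Without SW22, C572S and C572 they were 1, 84, 107 and 1, with 208 for the strain over both genotypes. Leaving out each library in turn gave 0 to 3 for the genotype in OF1, 0 to 1 in C57, over both strains and for the interaction, 105 to 170 for the strain in En1+/- mice and 120 to 179 in WT mice. The mitochondrial share differed by −2.35 points between C57 genotypes and 2.22 between hemizygous strains without Prdx5, and with all transcripts by 1.70 between hemizygous and −0.72 between WT strains. Mean levels over all transcripts were 1217.9 TPM for Prdx2, 274.4 for Prdx6 and 178.1 for Sod2. Why these values moved was not tested. No paired analysis was possible because the replicate numbers were given in accession order and the labels tie no animals across groups.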
